A study of Mus musculus with 8 samples.

Results

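Sialyltransferases are Golgi enzymes that close the sugar chains of glycoproteins and glycolipids by moving sialic acid from its activated donor, CMP-sialic acid, onto a terminal sugar. The 7 genes described here, St6gal1 and St3gal1 to St3gal6, encode enzymes that place sialic acid on galactose, and were taken from the deposited table by gene symbol. All 7 were found once each among the 25010 genes in the table. Left liver lobes were taken from 2 WT and from 2 LXRDKO mice, each mouse giving 1 RNA-Seq library, on the C57BL/6 background, 8 wk old, on standard chow and fasted for 4 to 6 h. The LXRDKO mice lacked both liver X receptors, LXRα (Nr1h3) and LXRβ (Nr1h2), from the whole body, that is, in every cell type of the liver and not in hepatocytes alone. Values are normalized counts, that is, reads on a gene divided by 1 size factor per library.

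The hepatocyte makes most glycoproteins of the plasma, and sialic acid on their glycans hides the galactose that the asialoglycoprotein receptor of the same cell binds when it clears them. St6gal1 is known as an abundant liver sialyltransferase. It caps the galactose of N-glycans, a cleaved soluble form is secreted, and in B cells the glycans it makes are ligands of CD22. The St3gal enzymes join sialic acid to galactose in another linkage. St3gal1 and St3gal2 act mostly on the core of O-glycans, St3gal3, St3gal4 and St3gal6 on the outer galactose of glycoprotein chains, and St3gal5 makes GM3, the ganglioside from which more complex gangliosides are built.

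The libraries held from 55772659 to 72842744 reads on genes. Each of the deleted receptors was lower in both livers of the LXRDKO group, with log2 fold changes of -1.65 for Nr1h3 and -1.66 for Nr1h2 (adjusted P = 0.0147 for each, limma), and reads on both genes remained. Genotypes were compared with limma on log2(normalized count + 1), with Benjamini-Hochberg adjustment over 15578 genes. Of these genes 50 (0.321%) passed an adjusted P value of 0.05. DESeq2, the tool of the authors, run on the reads recovered from the table, called 567 of 15797 genes (3.59%). Nothing in the labels places the 2 mice of a genotype in separate litters or cages. The P values of limma and DESeq2 rest on the spread between these livers together with variance borrowed from other genes.

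St6gal1 was 50.5% lower in LXRDKO than in WT liver, St3gal5 was 1.46-fold higher, and St3gal6, which had few reads, was 35.6% lower. No member passed the limma test, against the 0.321% of all genes that did, and 3 of the 7 (St6gal1, St3gal3 and St3gal5) had an unadjusted P value under 0.05, against 13.3% of all genes. DESeq2 called St6gal1 lower and St3gal5 higher, beside 2.03% of all genes called lower and 1.56% called higher. The quasi-likelihood test of edgeR called neither. St6gal1, St3gal3 and St3gal6 had lower values in each LXRDKO liver than in either WT liver, as did 23.0% of the genes tested, and St3gal5 had higher values, as did 21.7% of the genes tested.

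**Figure D1:**
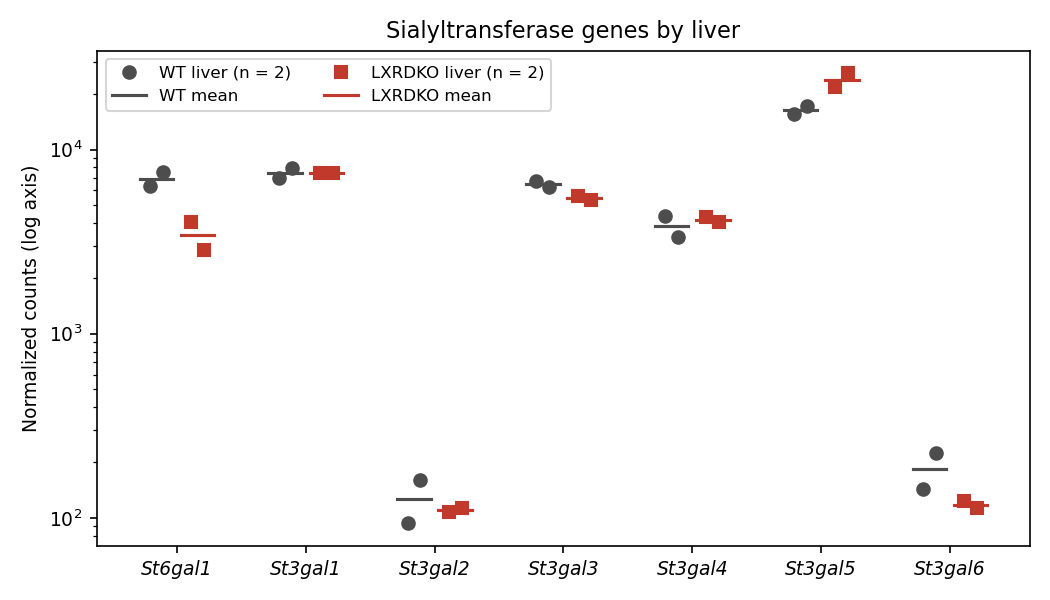
Normalized counts (log axis) of the 7 sialyltransferase genes in each liver, with circles for the 2 WT livers, squares for the 2 LXRDKO livers and a bar at each group mean. The squares of St6gal1 (2841 and 4045) lie below its circles (6384 and 7526), the squares of St3gal5 (22014 and 26004) lie above its circles (15593 and 17321), and St3gal2 and St3gal6 lie far under the other genes.

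St6gal1 (ENSMUSG00000022885) lies on chromosome 16 from 23224740 to 23360350, plus strand (GRCm38, which is mm10). The WT livers gave 6384 and 7526 normalized counts of it, and the LXRDKO livers 4045 and 2841. The lowest WT liver thus exceeded the highest LXRDKO liver. The group means were 6955 ± 808 in WT and 3443 ± 852 in LXRDKO (SD, n = 2 each), a ratio of 0.495. On the log2 scale the difference was -1.03 with a standard error of 0.19 and a 95% interval from -1.49 to -0.57 (adjusted P = 0.127, limma). DESeq2 gave -1.01 with a standard error of 0.20 and an adjusted P value of 6.56e-05, and edgeR gave an adjusted P value of 0.133. From 2650 to 8867 reads stood behind each value, so that counting error was at most 1.94% in a library. The spread between livers was larger than that, since the LXRDKO livers differed by 0.51 and the WT livers by 0.24 on the log2 scale, where the median gene differed by 0.17 and 0.18. By unadjusted limma P value (0.00178) St6gal1 ranked 217 among the genes tested. Among the 321 genes that DESeq2 called lower, 128 had a log2 change at least as large as that of St6gal1.

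The St6gal1 counts pool transcripts from more than 1 start. The promoter table of RefSeq (GRCm38.p6) lists 3 start sites of the gene, 65730 bp apart from the first to the last, and gene counts do not separate them. The 250 bases before each start are shown because they differ from each other and from the promoter of St3gal5, the member with the opposite difference. Capitals mark AGGTCA, a nuclear receptor half-site, and CCAAT, the core recognized by NF-Y, on either strand, so that a match on the other strand reads TGACCT or ATTGG.
St6gal1 start 1, chr16:23224490-23224739, plus strand: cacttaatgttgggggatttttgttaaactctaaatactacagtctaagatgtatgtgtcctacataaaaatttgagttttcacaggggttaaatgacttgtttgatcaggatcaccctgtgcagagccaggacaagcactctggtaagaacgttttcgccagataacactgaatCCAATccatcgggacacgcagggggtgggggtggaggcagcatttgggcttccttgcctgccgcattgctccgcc
St6gal1 start 2, chr16:23225771-23226020, plus strand: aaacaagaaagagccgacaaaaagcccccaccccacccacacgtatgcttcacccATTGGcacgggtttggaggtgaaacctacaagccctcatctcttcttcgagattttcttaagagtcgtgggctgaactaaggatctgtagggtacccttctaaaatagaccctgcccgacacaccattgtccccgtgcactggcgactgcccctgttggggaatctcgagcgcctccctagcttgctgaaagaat
St6gal1 start 3, chr16:23290220-23290469, plus strand: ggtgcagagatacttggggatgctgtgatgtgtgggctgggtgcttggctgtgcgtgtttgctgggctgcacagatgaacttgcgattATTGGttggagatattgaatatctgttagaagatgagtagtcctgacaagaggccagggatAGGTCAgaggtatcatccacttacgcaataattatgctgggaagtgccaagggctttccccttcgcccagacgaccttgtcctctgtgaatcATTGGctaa
St3gal5 start 1, chr6:72097358-72097607, plus strand: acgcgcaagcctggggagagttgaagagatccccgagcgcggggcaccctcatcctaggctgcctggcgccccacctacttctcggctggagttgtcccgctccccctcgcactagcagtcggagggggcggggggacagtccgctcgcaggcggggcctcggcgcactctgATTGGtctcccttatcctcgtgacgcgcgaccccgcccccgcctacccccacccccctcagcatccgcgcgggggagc

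The third St6gal1 stretch holds the only AGGTCA in the 8 stretches matched to members, beginning 101 bases before the start on the sense strand. AGGTCA occurs in 14.0% of the 32851 stretches of this length in the table, on either strand. The half-site repeated with a spacer of 4 bases, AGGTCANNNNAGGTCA, the arrangement known for LXR with its partner RXR, had no exact match in any member and was found in 5 stretches of the whole table. CCAAT stood in each of the 3 St6gal1 stretches, in that of St3gal5, in that of St3gal3 with 3 copies, in 1 of the 2 of St3gal6 and not in that of St3gal4, and in 33.9% of all stretches. TGTTTAC, a core bound by FOXA factors, had no match in members and one in 3.17% of all stretches. The stretch of St3gal5 was rich in G and C (71.6%, with 25 CpG), and those of St6gal1 were not (47.2%, 52.8% and 49.6%, with 6, 10 and 5 CpG). This was not particular to St3gal5, since St3gal4 had 72.8% (25 CpG) and St3gal3 68.4% (18 CpG). The 2 stretches of St3gal6 had 64.4% and 34.8% (16 and 1 CpG). The content over all stretches was not computed. Letters of this kind are a description of the windows and do not show binding. Of the 7 genes 5 had entries in the table.

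Of the pathway that makes O-glycan caps, St3gal1 (ENSMUSG00000013846, chromosome 15, 67102875 to 67176830, minus strand) was an abundant member. Its normalized counts were 7034 and 7929 in WT and 7476 and 7457 in LXRDKO, so both LXRDKO livers fell between the WT livers. The means of 7482 ± 633 and 7466 ± 13.5 (SD, n = 2 each) gave a ratio of 0.998. The 95% interval of the limma log2 difference ran from -0.24 to 0.24, a ratio from 0.846 to 1.18, and that interval does not include the size seen for St6gal1 or St3gal5. St3gal2 (ENSMUSG00000031749, chromosome 8, 110919922 to 110972480, plus strand), the enzyme of related substrate, was scarce. WT livers gave 93.5 and 160 normalized counts and LXRDKO livers 108 and 113, again with the LXRDKO livers inside the WT range. The log2 difference was -0.15 with a 95% interval from -0.92 to 0.62 (adjusted P = 0.892, limma). With 82 to 189 reads a library, counting error reached 11.0%, and a difference of the size of that of St6gal1 was outside the interval only narrowly.

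The 3 enzymes that cap the outer galactose of glycoproteins had differences of both signs. St3gal3 (ENSMUSG00000028538, chromosome 4, 117932154 to 118134914, minus strand) stood at 6727 and 6248 normalized counts in WT against 5622 and 5324 in LXRDKO. The livers of the genotypes did not overlap, at means of 6488 ± 339 and 5473 ± 210 (SD, n = 2 each), but the ratio was only 0.844. The log2 difference of -0.24 (standard error 0.09, 95% interval from -0.47 to -0.02) had an unadjusted P value of 0.0383 and missed the threshold after adjustment (adjusted P = 0.344 with limma, 0.513 with DESeq2). St3gal4 (ENSMUSG00000032038, chromosome 9, 35046576 to 35119268, minus strand) takes part in making selectin ligands and in capping coagulation factors. Its counts were 4349 and 3334 in WT and 4295 and 4052 in LXRDKO, and the groups overlapped. The log2 difference was 0.13 with an interval from -0.22 to 0.49 (adjusted P = 0.766, limma). St3gal6 (ENSMUSG00000022747, chromosome 16, 58468125 to 58524243, minus strand) is another enzyme of selectin ligands. WT livers gave 143 and 224 normalized counts and LXRDKO livers 123 and 113, with both LXRDKO livers lower. The WT livers alone differed by 0.65 on the log2 scale, more than the genotypes did. The log2 difference of -0.60 had a 95% interval from -1.28 to 0.08 (adjusted P = 0.425 with limma, 0.4998 with DESeq2), and leaving out WT replicate 2 gave -0.27, WT replicate 1 -0.92.

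St3gal5 (ENSMUSG00000056091, chromosome 6, 72097592 to 72154571, plus strand), the GM3 synthase, had the highest counts of the 7 genes in every liver. The WT livers gave 15593 and 17321 normalized counts, and the LXRDKO livers gave 22014 and 26004, without overlap. The means were 16457 ± 1222 and 24009 ± 2821 (SD, n = 2 each). The log2 difference of 0.54 had a standard error of 0.12 and a 95% interval from 0.23 to 0.85 (adjusted P = 0.177, limma). DESeq2 gave the same 0.54 with an adjusted P value of 0.0136, and edgeR an adjusted P value of 0.195. The DESeq2 call was lost when any 1 liver was left out, at adjusted P values from 0.0539 to 0.645 (0.293 and 0.0539 without WT replicate 1 and 2, 0.0653 and 0.645 without LXRDKO replicate 1 and 2), while that of St6gal1 remained each time (1.61e-06 to 0.0248). Of the 246 genes that DESeq2 called higher, 233 had a log2 change at least as large as that of St3gal5.

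**Figure D2:**
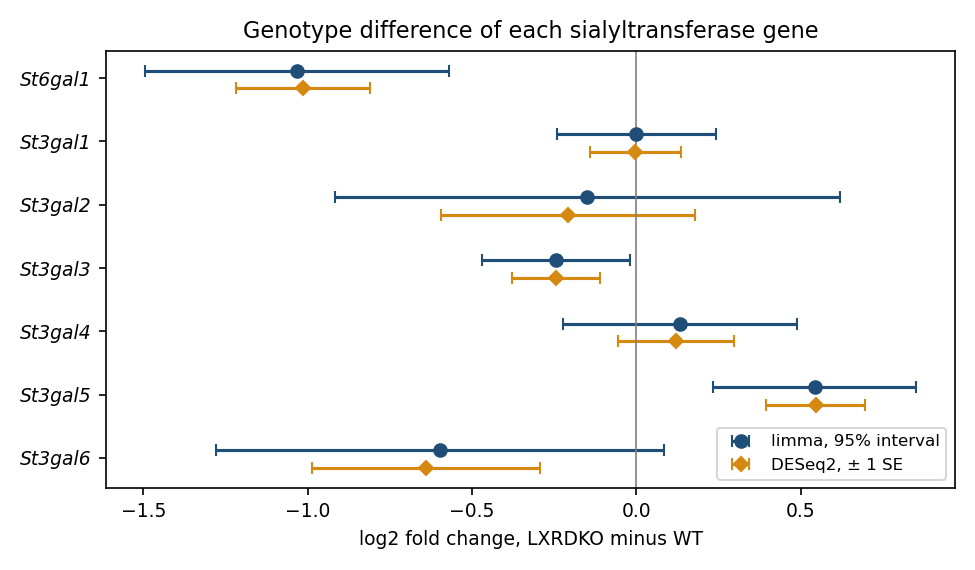
Log2 fold change of each gene, LXRDKO minus WT, from limma (circles, bars are 95% intervals) and DESeq2 (diamonds, bars are ± 1 standard error). The intervals of St6gal1, St3gal3 and St3gal5 exclude 0 before adjustment over all genes, those of St3gal2 and St3gal6 are the widest, and both tools gave nearly the same size for each gene.

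Over the 7 genes the median log2 difference was -0.15, and the median size without sign was 0.245. Over all 15578 genes tested these medians were -0.0046 and 0.173. By direction 2 members were higher and 5 lower, and over all genes 50.9% were lower.

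Levels were compared between genes per kb of exon, the length of the union of annotated exons. On that scale St3gal5 was the most abundant in WT liver at 6286 ± 467 normalized counts per kb (SD, n = 2, here and for the levels that follow), and St3gal3 was next at 2344 ± 123. St6gal1 (1415 ± 164), St3gal4 (1314 ± 246) and St3gal1 (1092 ± 92.4) came after them, and in this order neighbours overlapped in range. St3gal6 (29.7 ± 9.34) and St3gal2 (25.2 ± 9.38) overlapped with each other and lay 36.8-fold and more below St3gal1. In LXRDKO liver the level of St6gal1 was 700.4 ± 173 per kb, below that of St3gal4 (1428 ± 58.8) and St3gal1 (1090 ± 1.98) without overlap, and its place in the order went from 3 to 5. The first 2 places were the same in both genotypes. St3gal5 reached 9171 ± 1078 per kb and St3gal3 1977 ± 76.0. St3gal2 (21.9 ± 0.610) and St3gal6 (19.1 ± 1.24) exchanged the last places, at levels that differed 1.15-fold, but with the length of the longest transcript St3gal6 stood before St3gal2 in both genotypes. With that length in place of the exon union, St6gal1 stood behind St3gal4 in WT liver, with ranges that overlapped, and again in place 5 in LXRDKO liver.

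Ratios within a library do not depend on its scaling. St6gal1 made up 15.8% and 17.6% of the summed normalized counts of the 7 genes in WT liver, against 9.26% and 6.19% in LXRDKO liver. The mean share was thus 16.7% ± 1.26 in WT and 7.72% ± 2.17 in LXRDKO (SD, n = 2 each). The share of St3gal5 was 38.7% and 40.5% in WT against 50.4% and 56.6% in LXRDKO. St6gal1 took a smaller share and St3gal5 a larger one in both LXRDKO livers. The log2 ratio of St6gal1 to the sum of the 6 St3gal genes was -2.41 and -2.23 in WT and -3.29 and -3.92 in LXRDKO, a mean difference of -1.29. St3gal5 exceeded St6gal1 2.44-fold and 2.30-fold in WT liver, against 5.44-fold and 9.15-fold in LXRDKO liver. None of these shares and ratios overlapped between the genotypes. For those of St6gal1 this followed from the counts, and it is no separate result. In both LXRDKO livers St6gal1 was lower, and St3gal5 and the sum of the St3gal genes were higher, than in both WT livers. With 2 livers against 2, the exact two-sided permutation test gave P = 0.333 for each share and ratio, the smallest value this design allows. The summed counts of all 7 genes, 40324 and 42743 in WT and 43684 and 45903 in LXRDKO, differed by 7.85% in mean, also at P = 0.333 in the exact permutation test. The mean of this sum was 3260 higher in LXRDKO, while that of St3gal5 alone went from 16457 in WT to 24009 in LXRDKO.

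**Figure D3:**
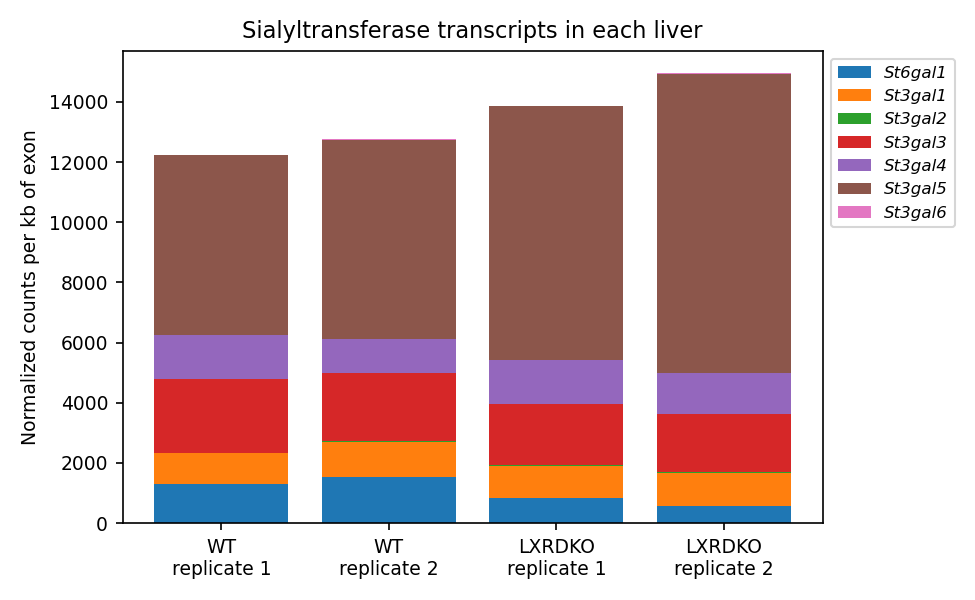
Normalized counts per kb of exon of the 7 genes, stacked for each liver. The St6gal1 layer at the base is thinner in both LXRDKO livers (5.94% and 3.87% of the stack) than in both WT livers (10.6% and 11.99%), the St3gal5 layer is thicker (60.6% and 66.4% against 48.7% and 51.8%), and the layers of St3gal2 and St3gal6 are too thin to read.

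Genes of other cell types differed between the same livers, and their part in the sialyltransferase values was not tested. In RNA of a whole lobe, fewer cells of a type and less RNA in each cell cannot be told apart. Of 10 B cell markers tested, among 12 listed, 8 lay lower in LXRDKO and 2 higher. The median log2 difference was -1.07, and 6 had an unadjusted P value under 0.05 but none was called by limma or DESeq2. None of the 12 was at or under 3 reads in every library, and their summed normalized counts were 398 and 552 in WT against 350 and 249 in LXRDKO. Of 10 Kupffer cell and macrophage markers 7 were lower, and limma called 3 of them (Clec4f, Cd5l and Marco) and DESeq2 5 (Timd4 and Vsig4 too). The markers not called differed in sign. By limma log2 difference Adgre1 (-0.79) and C1qa (-0.19) were lower, and Csf1r (0.05), C1qb (0.06) and Cd68 (0.35) were higher. The sum over all 10 markers went from 13999.9 and 15827 in WT to 9728 and 5789 in LXRDKO. Cdh5 and Kdr, of 8 endothelial markers (7 lower), passed both tests, and this list summed to 14631 and 13424 in WT and 11434 and 8979.9 in LXRDKO. Markers that lay mostly higher in LXRDKO included those of cholangiocytes (6 of 6 higher, sum 2092 and 3628 against 4617 and 5477, Epcam called by DESeq2), stellate cells (7 of 8 higher, sum 12183 and 13999 against 17356 and 19617, Dcn and Reln called by DESeq2) and plasma cells (3 of 4 tested higher, sum 9741 and 13144 against 12373 and 17152, none called). The plasma cell sums are almost wholly Sdc1, at 9688 and 13025 in WT and 12262 and 16898 in LXRDKO. They say little of the other markers in that list, such as Mzb1 at 14.8 and 15.3 in WT and 9.49 and 18.2 in LXRDKO. Whether the Sdc1 reads came from plasma cells was not tested. In the B cell, macrophage and endothelial lists the lowest sum was that of LXRDKO replicate 2, the liver in which St6gal1 was lowest. The hepatocyte sum was lowest there too (6271540 against 6456100 to 7515210 in the other livers), but Alb alone held 4644570 of it. In the cholangiocyte, stellate cell, plasma cell and T and NK cell lists the same liver had the highest sum. Cd4 alone held 224 of the T and NK cell sum of 311 in that liver. Of the 7 markers tested in that list 5 were lower in LXRDKO, and Cd4 was 1 of the 2 that were higher.

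The 5 genes whose values over the 4 libraries lay nearest to those of St6gal1, by Euclidean distance of centred log2 values, were Siglecg (0.0673), Cldn5 (0.0787), Adgrf1 (0.0861), Rps6kl1 (0.105) and Adcy4 (0.195). Siglecg, a sialic acid binding receptor of B cells, stood at 31.9 and 35.6 normalized counts in WT against 19.0 and 12.9 in LXRDKO. It rested on 12 to 42 reads a library, with a counting error of up to 28.9%, so its place as nearest is uncertain. Rps6kl1 likewise had 12 to 44 reads, and Adgrf1 had 328 to 1126. Cldn5, a tight junction protein of endothelial cells, had 237 and 275 in WT and 143 and 108 in LXRDKO. The likeness rests on 4 values a gene and carries no test.

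Sharing of reads could touch 3 members, because the strand setting of the read count is not given in the sources used here. St6gal1 shares 200 bp of exon with BC106179 on the opposite strand, which had 18.2 to 59.3 normalized counts. St3gal4 shares 412 bp with 4930581F22Rik, which had 1375 to 1702, and St3gal6 shares 1603 bp with Dcbld2, which had 168 to 251. Dcbld2 exceeded St3gal6 in both LXRDKO livers and in WT replicate 1 (168 against 143), but not in WT replicate 2 (203 against 224). The split between St3gal6 and Dcbld2 is therefore uncertain.

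Of 67 other genes of sialylation tested, in 8 lists that cover the pathway, none was called by limma, DESeq2 or edgeR. An unadjusted limma P value under 0.05 was found for 9 of them (13.4%), near the share of 13.3% over all genes. Among 13 other sialyltransferases 10 were in the table and 6 were tested, 3 higher and 3 lower (median log2 difference -0.03). St8sia3, which like St8sia4 joins sialic acid to sialic acid, stood at 45.6 and 43.3 normalized counts in WT against 56.0 and 69.7 in LXRDKO, while St6galnac2, which has 2 gene identifiers and is uncertain, and St8sia4 had log2 differences of 0.54 and -0.42. The supply of CMP-sialic acid, from UDP-GlcNAc to transport into the Golgi, showed 3 genes higher and 7 lower (median -0.05). Slc35a1, the Golgi transporter of CMP-sialic acid, had 1071 and 1091 in WT and 964 and 969 in LXRDKO (log2 difference -0.16, adjusted P = 0.577, limma), and Npl, a lyase of free sialic acid, had a log2 difference of 0.52. Renbp, which turns over N-acetylmannosamine, differed by -0.99 (adjusted P = 0.304, limma, and 0.0886, DESeq2). Of 6 genes that remove or modify sialic acid 3 were higher and 3 lower (median -0.03). Siae, an esterase, was at -0.26 and Casd1, which acetylates sialic acid, at -0.27, and Neu3, a sialidase of gangliosides, at 0.59 (adjusted P values from 0.308 to 0.392, limma).

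Other lists hold the genes that build the acceptors of sialic acid and the receptors that read them. Of 12 genes of N-glycan branching and galactosylation 7 were higher and 5 lower (median 0.12), and those of smallest P value were the trimming enzyme Man2a2 (-0.32), the galactosyltransferase B4galt3 (-0.34) and Mgat1 (-0.18), which starts complex N-glycans. Of 11 O-glycan genes tested 6 were higher and 5 lower (median 0.07), with C1galt1 at -0.19, Galnt2 at -0.42 and Gcnt1 at 1.12 on low counts (29.7 and 55.2 in WT, 124 and 64.3 in LXRDKO). Of 10 ganglioside genes 5 were higher and 5 lower (median -0.0037), among them Gm2a, an activator of ganglioside breakdown, at -0.49 (adjusted P = 0.267, limma, and 0.0841, DESeq2), and Glb1 at -0.28. Of 9 receptors of sialic acid or exposed galactose tested 6 were higher and 3 lower (median 0.04). Cd22, the B cell receptor for the St6gal1 product and also a gene of the B cell list, stood at 94.7 and 141 normalized counts in WT against 67.4 and 47.2 in LXRDKO (log2 difference -1.02, adjusted P = 0.293, limma), Siglecg was at -1.06 and Cd33 at 0.88. Of the 3 proteases that release Golgi enzymes, Bace1, known to cleave St6gal1, was at -0.22, Sppl3 at -0.07 and Bace2 at 0.08.

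**Figure D4:**
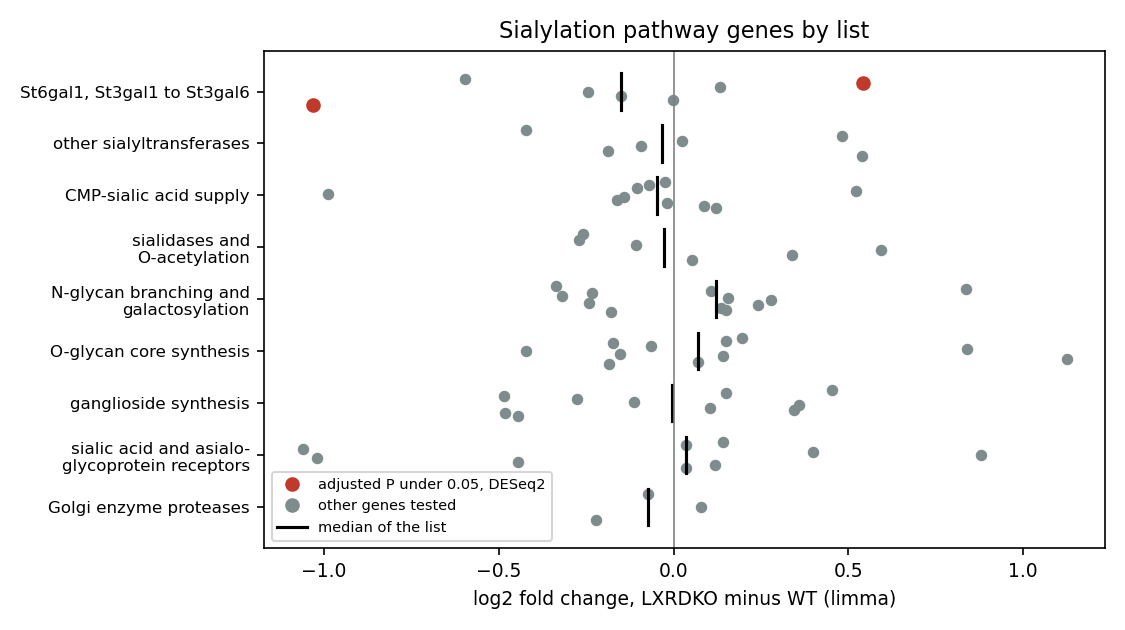
Limma log2 fold change, LXRDKO minus WT, of each gene tested in the 7 sialyltransferases and in 8 lists of related genes, with a black bar at each list's median and large points for genes that DESeq2 called. St6gal1 (-1.03) and St3gal5 (0.54) are the 2 called genes shown, and the medians of the other lists lie between -0.07 and 0.12.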

How the data were processed

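Polyadenylated RNA was captured with the KAPA Stranded mRNA kit and read from 1 end over 50 bp. Alignment by the authors used STAR 2.6.0c and mm10. The read counter, annotation release and strand setting are not given in the sources used here. The values are a signal that the authors normalized before it was deposited, namely DESeq2-normalized counts of 25010 genes in 4 columns, with no pooling. Every value (100%, tolerance 0.01) was a whole number of reads times a factor of its library, and the reads were recovered. The size factors of the WT libraries were 0.877 and 1.18, those of LXRDKO 1.05 and 0.933.

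The test was limma 3.58.1 (R 4.3.3) on log2(normalized count + 1), with empirical Bayes moderation, a mean trend, a minimum mean of 10 normalized counts per gene, Benjamini-Hochberg adjustment and a threshold of 0.05. This scale understates changes of low genes. Recovered reads were also tested with DESeq2 1.42.0 and edgeR 4.0.16. Ratios were compared by exact two-sided permutation tests. Counting errors cover reads only.

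Positions and lengths came from GENCODE M21 (24987 of 25010 identifiers matched, 23 did not) and promoters from RefSeq. Alternatives were other pseudocounts, filters, scalings, moderation, thresholds, the replicate block and leaving out each liver. The members and lists were chosen with earlier results of these data known. Named genes are the 7 members, Nr1h3 and Nr1h2, the 5 genes nearest to St6gal1, and, from each list, every gene called by limma or otherwise up to 3 with the smallest P value. Not every gene chosen by this rule is reported here. ATAC-Seq and St6gal2, St6galnac5, St8sia5, Neu4 and Gcnt3 were not analysed here.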

Additional observations from a re-analysis of the deposited data

How the results depend on the processing

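The log2 differences of St6gal1, St3gal3, St3gal5 and St3gal6 kept their sign under each of the 15 alternatives, most of which could not change it. The livers of these genes did not overlap between genotypes, so leaving out 1 liver with limma could not reverse the sign. Filters, moderation and the replicate block returned the same difference (-1.03 for St6gal1). The only change of a member's call was under DESeq2, which called 2 members (St6gal1 at -1.01, adjusted P = 6.56e-05, and St3gal5 at 0.54, adjusted P = 0.0136). Leaving out 1 liver gave -1.29 to -0.78 for St6gal1, 0.42 to 0.66 for St3gal5 and -0.92 to -0.27 for St3gal6 with limma, where the lone liver of a genotype is assumed to vary like the other group. The DESeq2 runs without 1 liver, added after seeing the data, gave 0.42 to 0.66 for St3gal5, and the number of genes called was 267 to 451 (298 without WT replicate 2, 282 and 267 without LXRDKO replicate 1 and 2). The near-zero difference of St3gal1 changed sign with scaling to the library total (0.054), with edgeR (0.0055) and without WT replicate 2 (0.086) or LXRDKO replicate 2 (0.0014), in a range over the left-out livers of -0.087 to 0.086. Without WT replicate 2, St3gal2 went to 0.24 and St3gal4 to -0.060, in ranges of -0.54 to 0.24 and -0.060 to 0.32. The number of genes called by limma, 50, became 25 at a minimum mean of 50 normalized counts, 1 without the trend, 2 and 138 at thresholds of 0.01 and 0.10, 567 with DESeq2, and 2 to 265 without 1 liver (265 and 157 without WT replicate 1 and 2, 2 and 4 without LXRDKO replicate 1 and 2). The replicate numbers share no origin in the labels, and deviations of same-numbered livers correlated at 0.0031 over 15578 genes. With the replicate block the number called was 90 and no member was called (St6gal1 -1.03, adjusted P = 0.120). The difference in the St6gal1 share of the 7 genes was -9.00 percentage points and -6.40 on the per kb scale. The median over all genes moved from -0.0046 to 0.05 with scaling to the library total. The causes were not tested. St3gal2 and St3gal6 had the fewest reads (82 to 264 a library, counting error 6.15% to 11.0%), and their WT livers differed by more than that (0.77 and 0.65 on the log2 scale).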

Other observations

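Beside the cell types given with the sialyltransferases, hepatocyte markers summed to 6456100 and 7515210 in the WT livers and to 6831900 and 6271540 normalized counts in the LXRDKO livers. Alb alone held 4940810 and 5959090 of the sums in WT and 5214020 and 4644570 in LXRDKO. Of these 9 markers 5 were higher and 4 lower (median log2 difference 0.02), and DESeq2 called Hnf4a (0.61) and Tat (0.66) higher, with adjusted P values of 0.0115 and 0.00675 and of 0.224 and 0.242 from limma. Of 7 T and NK cell markers tested 5 were lower and 2 higher (median -0.27), and Cd3e stood at 39.9 and 66.2 normalized counts in WT against 28.5 and 23.6 in LXRDKO. Of 4 plasma cell markers tested 3 were higher and 1 lower (median 0.52), and Jchain had 21.7 and 50.1 in WT and 43.7 and 195 in LXRDKO, with 1 LXRDKO liver far above the other livers. Only S100a9 of 6 neutrophil markers was tested, at 6.84 and 11.9 in WT and 9.49 and 12.9 in LXRDKO. No gene of the T and NK cell, plasma cell and neutrophil lists was called by limma or DESeq2, and 1 of them, Cd3e, had an unadjusted limma P value under 0.05.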
